A study of Mus musculus with 12 samples.

Results

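The 10 genes described here are Csmd1, Lrp1b, Magi2, Dmd, Park2, Immp2l, Wwox, Macrod2, Dpyd and Fhit, very long genes of which most are known from common fragile sites. They were taken by symbol from a table of 23893 genes, and all 10 were found in it. The table holds raw RNA-seq counts of 12 mouse cortical neuron cultures, 3 in each of 4 groups. The study compared an inhibitor of topoisomerase 1 (TOP1), topotecan, with removal of the enzyme, alone and together. All cultures were made from E13.5-15.5 embryos and carried floxed Top1 alleles (Top1 fl/fl) per the study's methods. The labels name C57BL6/J wild-type mothers, and how this goes with Top1 fl/fl cultures is not stated. On day 3 in vitro (DIV 3) lentivirus was added, carrying tdTomato under the CaMKIIα promoter (WT), or tdTomato together with CRE recombinase, which removes exon 3 of Top1 (Top1 cKO). The WT groups were therefore floxed and infected too. At DIV 15 they received vehicle, 0.003% DMSO (WT-Veh and Top1 cKO-Veh), or 300 nM topotecan (WT-Topot and Top1 cKO-Topot) for 3 days, and were harvested at DIV 18. The stated transduction efficiency was 85 to 90%, so each Top1 cKO culture held cells without CRE. The promoter is neuronal, and other cells were not targeted. Neither the labels nor the methods say whether the 3 cultures of a group came from separate animals, so the p-values measure the spread between cultures.

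Common fragile sites are stretches of chromosome that break when DNA replication is slowed, and many of them lie inside single giant genes expressed in neurons. Such a gene is copied into RNA by a polymerase that must travel its whole span before 1 transcript is complete. TOP1 relieves the twist that builds up in DNA ahead of and behind that polymerase by nicking and resealing a strand, and topotecan holds the enzyme on the nicked DNA. The 10 genes encode proteins of unlike function. Csmd1 is a membrane protein with domains of complement regulators, Lrp1b an endocytic receptor of the LDL receptor family and Magi2 a scaffold of synaptic junctions. Dystrophin, the product of Dmd, links the actin cytoskeleton to a complex in the cell membrane. Parkin, the product of Park2, is a ubiquitin ligase that marks damaged mitochondria, and Immp2l is a subunit of a peptidase of the mitochondrial inner membrane. The others are enzymes: Wwox is an oxidoreductase with WW domains, Macrod2 removes ADP-ribose from proteins, Dpyd (dihydropyrimidine dehydrogenase) starts the breakdown of pyrimidines, and Fhit cleaves dinucleoside polyphosphates.

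In the GENCODE vM1 annotation of the NCBIM37 (mm9) assembly, the build of the authors' alignment, the 10 genes span 870.8 kb (Dpyd) to 2257 kb (Dmd). Exons make up 0.0852% (Fhit) to 0.864% (Csmd1) of the span, the rest being intron, and only reads on exons were counted. Csmd1 lies at chr8:15892537-17535586, Lrp1b at chr2:40450768-42509118, Magi2 at chr5:18732864-20210616 and Dmd at chrX:80194209-82451480. Park2 lies at chr17:11259991-12254519, Immp2l at chr12:41750677-43056575, Wwox at chr8:116963555-117876608, Macrod2 at chr2:140221045-142218702, Dpyd at chr3:118265047-119135836 and Fhit at chr14:10382606-11994549. Not every transcript of a giant gene is giant. The shortest complete coding transcript spanned 2056 kb in Lrp1b, 1639 kb in Csmd1, 1261 kb in Immp2l, 903 kb in Fhit and 871 kb in Dpyd. It spanned 423 kb in Magi2, 154 kb in Dmd, 34.8 kb in Wwox and 24.9 kb in Macrod2, while Park2 has no coding transcript annotated as complete. The short transcripts of Dmd start 2099 kb into the gene, next to its end, and encode the small dystrophin products known from brain. The shortest of Macrod2 and Wwox start with the long ones and end early. Macrod2 also has a complete coding transcript of 216 kb that starts 1781 kb into the gene. A count summed over a gene's exons does not say which transcript the reads came from.

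**Figure D1:**
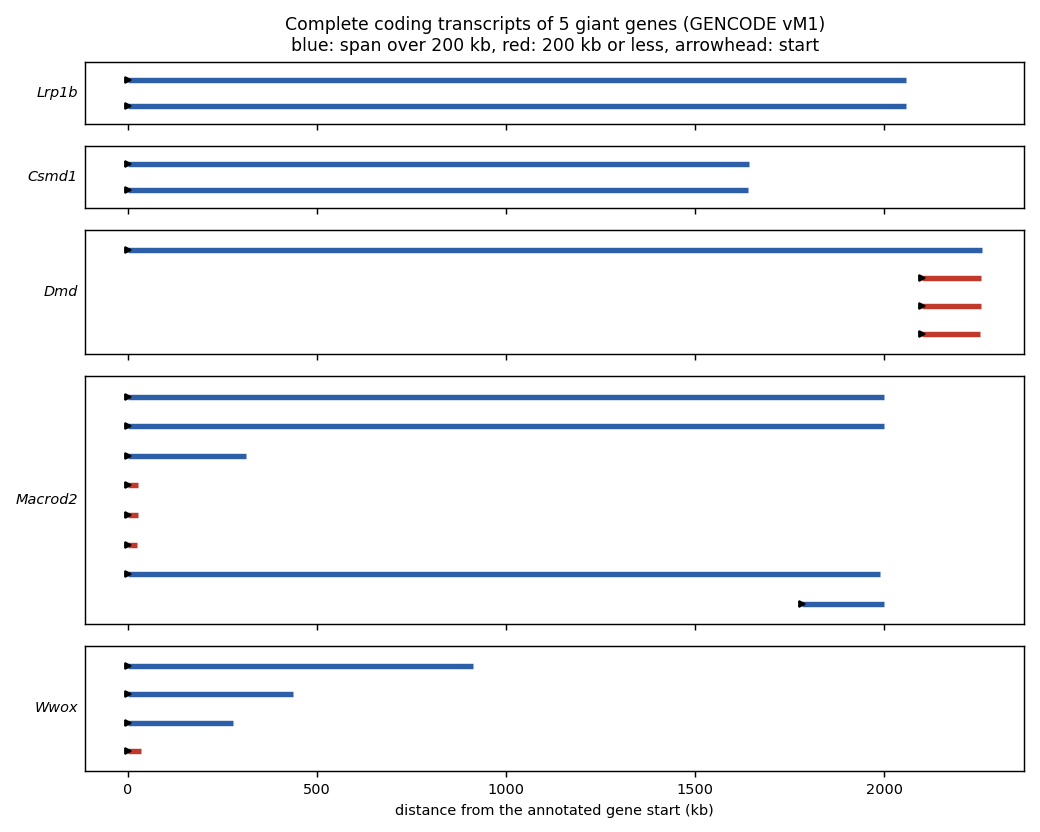
Complete coding transcripts of Lrp1b, Csmd1, Dmd, Macrod2 and Wwox as lines along the distance from the annotated gene start (kb), with an arrowhead at each start and transcripts of 200 kb or less in red. Each complete coding transcript of Lrp1b and Csmd1 spans 1639 kb or more, the 3 short ones of Dmd start about 2099 kb into the gene, and Macrod2 and Wwox have short ones at their start.

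The bases before the starts of Dmd, Macrod2 and Magi2 are shown because Dmd and Magi2 have an internal start in RefSeq and because Dmd and Macrod2 did not pass the test with topotecan. Each is the 250 bases before a start in RefSeq (GRCm38.p6), all on the plus strand, and each sequence occurs once in NCBIM37. Capitals mark matches to 3 motifs. The GC box was searched as GGGCGG. The TATA box was searched as TATAAA. The CCAAT box was searched by its name's letters. Both strands were searched, so a box may be printed as its reverse complement.
Dmd, first start, chrX:82948620-82948869: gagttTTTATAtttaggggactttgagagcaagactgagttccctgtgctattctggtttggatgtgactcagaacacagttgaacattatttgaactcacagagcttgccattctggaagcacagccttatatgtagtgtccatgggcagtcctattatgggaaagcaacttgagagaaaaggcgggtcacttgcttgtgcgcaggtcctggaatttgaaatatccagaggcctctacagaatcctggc
Dmd, internal start, chrX:85048045-85048294: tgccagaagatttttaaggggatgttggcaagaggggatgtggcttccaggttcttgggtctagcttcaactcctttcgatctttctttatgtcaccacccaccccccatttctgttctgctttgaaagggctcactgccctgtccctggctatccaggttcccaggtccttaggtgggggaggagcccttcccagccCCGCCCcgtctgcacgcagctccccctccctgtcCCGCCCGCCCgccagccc
Macrod2, chr2:140395180-140395429: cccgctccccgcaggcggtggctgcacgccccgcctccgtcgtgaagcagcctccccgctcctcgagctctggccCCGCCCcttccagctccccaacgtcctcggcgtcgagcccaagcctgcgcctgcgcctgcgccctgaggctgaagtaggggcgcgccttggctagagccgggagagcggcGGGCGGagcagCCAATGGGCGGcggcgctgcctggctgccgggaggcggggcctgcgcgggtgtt
Magi2, first start, chr5:19226796-19227045: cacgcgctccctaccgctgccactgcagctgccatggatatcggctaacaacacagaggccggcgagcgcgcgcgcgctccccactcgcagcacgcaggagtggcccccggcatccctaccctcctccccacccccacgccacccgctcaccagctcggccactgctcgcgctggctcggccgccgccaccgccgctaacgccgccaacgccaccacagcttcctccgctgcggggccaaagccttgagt
Magi2, internal start, chr5:19907268-19907517: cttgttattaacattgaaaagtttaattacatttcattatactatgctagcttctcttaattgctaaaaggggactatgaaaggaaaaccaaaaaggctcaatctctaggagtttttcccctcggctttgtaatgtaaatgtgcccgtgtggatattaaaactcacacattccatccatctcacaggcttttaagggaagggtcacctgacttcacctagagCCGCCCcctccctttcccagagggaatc
The first start of Dmd has 2 CpG, 45.2% G and C and 1 match to the TATA box. That match is a reverse complement at the end of the sequence farthest from the start. The internal start, 2099 kb downstream, has 7 CpG, 60% G and C and 3 GC boxes, of which 2 overlap in the last capitals. Magi2 runs the other way, from 29 CpG and 72% at the first start to 3 CpG and 41.2% at the internal one, 680 kb downstream, which holds 1 GC box. Macrod2 has 30 CpG, 76.4% G and C, 3 GC boxes and 1 CCAAT box that adjoins the last of them. Over 32851 RefSeq promoters of the same length the median is 6 CpG and 52.4% G and C, and 32.7% hold the GC box, 12.4% the TATA box and 33.8% the CCAAT box. These matches describe the sequences and no more. Csmd1, Lrp1b, Wwox and Park2 were not matched in the promoter table, nor was the internal start of Macrod2. An internal start of Fhit, 709 kb into the gene, is among the RefSeq promoters and is not shown.

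Counts per library ran from 1730164 to 4583777, and 3 counts in a library equal 0.687 to 1.73 CPM (counts per 1e+06, scaled by TMM factors), the floor below which no level is read. A gene is called detected in a comparison where its mean over the libraries compared reached 1 CPM. Top1 itself, at 117 to 163 CPM in WT-Veh and 129 to 140 in WT-Topot, was lower in both deleted groups, at 27.1 to 44.0 (Top1 cKO-Veh) and 28.4 to 37.5 (Top1 cKO-Topot), as their labels say. All 6 neuronal markers were present, with summed levels of 4838 to 6147 CPM in WT-Veh and 5051 to 5524 in WT-Topot. The 6 astrocyte markers summed to 1265 to 3275 CPM in WT-Veh, 617 to 1297 in WT-Topot, 1300 to 3681 (Top1 cKO-Veh) and 623 to 1718 (Top1 cKO-Topot), and 2 of the 6 were lower in WT-Topot than in WT-Veh (4 with the replicate block), against 1 of the 6 neuronal markers (3 with the block, which also called 2 higher). Interneuron markers (6) summed to 781 to 1726 CPM in WT-Veh and 530 to 971 in WT-Topot (none called, and with the block 4 lower and 1 higher), progenitor markers (6) to 88.7 to 144 and 165 to 218, and oligodendrocyte markers (7) to 98.5 to 155 and 128 to 152. Microglial (6), endothelial and mural (6) and muscle (4) markers summed to at most 43.4 CPM in any library, and Cldn5, Pecam1, Ckm, Myh3 and Des stayed below a mean of 1 CPM in every group. In whole cultures, fewer cells of a type and less RNA per cell cannot be told apart. The part of the astrocyte and interneuron markers in the changes below was not tested.

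Per kb of exon, Magi2 was the highest of the 10 in WT-Veh, at 15.3 ± 6.38 CPM per kb (SD, n = 3), followed by Csmd1 at 4.95 ± 0.700. Magi2 and Csmd1 differed by more than the sum of their SDs, and so did Csmd1 and the next gene. Dmd (2.65 ± 0.209), Park2 (2.54 ± 0.642), Wwox (2.48 ± 0.213) and Macrod2 (2.005 ± 0.865) came next and did not differ beyond their spread. Immp2l (1.19 ± 1.04), Dpyd (0.625 ± 0.379) and Lrp1b (0.563 ± 0.112) had lower means and did not differ from each other beyond their spread. Immp2l did not differ from Park2 or Macrod2 beyond the spread either. In WT-Veh replicate 2 Immp2l held 0 counts and Dpyd 2, under the floor. Fhit (0.142 ± 0.246) held at most 2 counts in a WT-Veh library, under the floor, so its level is not compared. In WT-Topot the order changed: Magi2 (3.42 ± 1.04), Macrod2 (2.37 ± 0.382) and Dmd (2.32 ± 0.298) stood first with overlapping spreads, Wwox (0.483 ± 0.190) and Csmd1 (0.383 ± 0.0997) next, and the others at or below 0.327. In both Top1 cKO groups Magi2 and Dmd stood first and second, with Csmd1 sixth at 1.54 ± 0.456 (Top1 cKO-Veh) and 0.521 ± 0.118 (Top1 cKO-Topot).

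**Figure D2:**
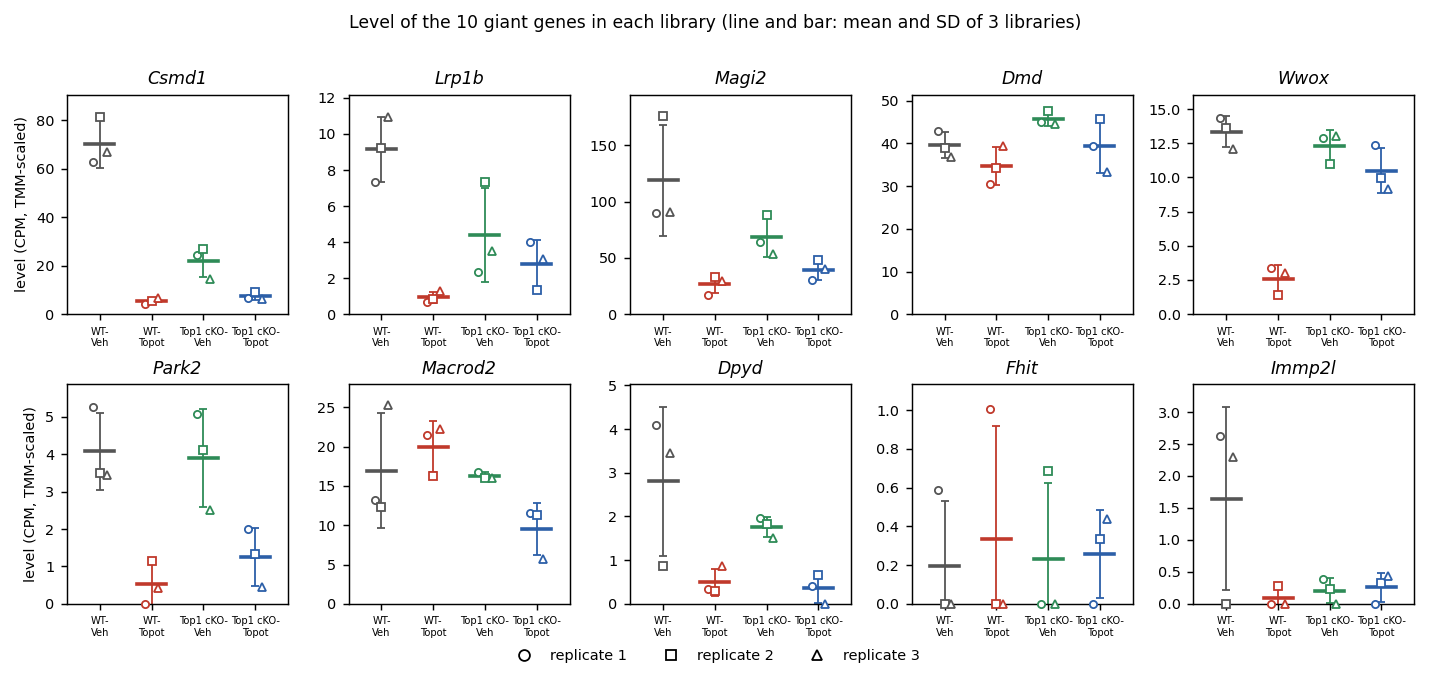
Level of each of the 10 genes in every library, as CPM scaled by TMM factors on a linear axis from 0, by group, with 1 symbol per replicate number and a line and bar for the mean and SD of 3 libraries (bars are cut at 0). Csmd1, Lrp1b, Wwox and Magi2 lie lower in all 3 WT-Topot libraries than in all 3 WT-Veh libraries, while Dmd and Macrod2 overlap between these groups.

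Topotecan in WT cultures lowered 4 of the 10 genes, Csmd1, Lrp1b, Magi2 and Wwox, and raised none. Dmd, the longest by span, and Macrod2 did not pass the test in either direction. Park2, Dpyd and Immp2l had few counts and did not pass, and Fhit could not be measured. The test was edgeR's quasi-likelihood test over all 23893 genes at an FDR of 0.01, by which 2.04% of all genes were lower. Median log2 fold change was -2.44 over the 10 genes and 0 over all genes. All genes include 5182 with no count, so the medians over all genes, here and below, do not show how detected genes moved. Calling was more frequent among long genes: 3.55% of detected genes were lower, against 64.2% of the 179 detected genes over 500 kb and 71.0% of the 62 at least as long as Dpyd. With the replicate number as a block, 5.0% of all genes and 5 of the 10 were lower, Park2 being the fifth. Higher were 0.682% of all genes and none of the 10. Libraries of the groups did not overlap for 6 of the 8 detected members, against 26.0% of all detected genes. Among the 6 is Dpyd, on 2 counts in WT-Veh replicate 2 and 2 in WT-Topot replicate 3, both under the floor.

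Csmd1 had the largest fold change of the 4. It stood at 62.6, 81.5 and 66.8 CPM in the 3 WT-Veh libraries, 4.02, 5.44 and 6.85 in WT-Topot, 24.2, 26.8 and 14.5 with deletion alone (Top1 cKO-Veh) and 6.77, 9.30 and 6.12 in Top1 cKO-Topot. The WT-Veh libraries lay above all others, the Top1 cKO-Veh libraries lay between, and the 2 topotecan groups overlapped each other. Against WT-Veh, Csmd1 was lower in WT-Topot by a log2 fold change of -3.69 ± 0.277 (SE; edgeR adjusted p = 6.57e-08), in Top1 cKO-Topot by -3.20 ± 0.275 (edgeR adjusted p = 3.82e-07) and after deletion alone by -1.66 ± 0.255 (edgeR adjusted p = 0.00671). The last call was lost in some fits, although the fold change stayed negative. Leaving out the second WT-Veh library gave -1.54 (edgeR adjusted p = 0.0382), and leaving out the second Top1 cKO-Veh library -1.84 (0.0162). Leaving out genes of low counts gave -1.67 (edgeR adjusted p = 0.0230), while the replicate block gave an edgeR adjusted p of 5.62e-17. Both of its relatives were lower in WT-Topot too. Csmd2 (580 kb) fell from 31.7 ± 7.02 to 4.96 ± 2.17 CPM (SD, n = 3; log2 fold change -2.62, edgeR adjusted p = 4.58e-05) and Csmd3 (1211 kb) from 14.6 ± 3.34 to 1.65 ± 0.951 (-3.15, edgeR adjusted p = 0.000185). In Top1 cKO-Topot Csmd2 stood at 24.2 ± 7.99 CPM, close to the 24.1 ± 1.40 of Top1 cKO-Veh, and Csmd3 at 1.63 ± 0.342, below the 5.92 ± 0.955 of Top1 cKO-Veh.

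Lrp1b had few counts. WT-Veh libraries held 25, 21 and 19 counts, WT-Topot 2, 3 and 3, Top1 cKO-Veh 6, 32 and 7, and Top1 cKO-Topot 10, 4 and 7. All 3 WT-Topot libraries were thus at or under the floor of 3 counts. Scaled by library size, the WT-Topot counts were 10.4% of those in WT-Veh (exact 95% interval of the summed counts 4.30 to 21.7%, counting error only), and the fitted log2 fold change was -3.24 ± 0.538 (edgeR adjusted p = 0.000518). In CPM, Top1 cKO-Veh stood at 2.35, 7.33 and 3.51 against 7.31, 9.20 and 10.9 in WT-Veh, so that 1 library, replicate 2, reached the lower end of WT-Veh (log2 fold change -0.96 ± 0.457, edgeR adjusted p = 0.574). The Top1 cKO-Topot libraries (3.98, 1.33 and 3.06 CPM) lay below all of WT-Veh (-1.68 ± 0.490, edgeR adjusted p = 0.0591, and 0.00535 with the replicate block). Its large relatives in the receptor family, Lrp1 and Lrp2, changed by -0.17 and -0.15 in WT-Topot, with an edgeR adjusted p of 1 for both.

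Magi2, the most abundant of the 10, stood at 89.8, 176 and 90.4 CPM in WT-Veh, 17.4, 32.6 and 29.5 in WT-Topot, 63.7, 87.9 and 53.1 with deletion alone (Top1 cKO-Veh) and 30.3, 48.2 and 39.8 in Top1 cKO-Topot. In each group replicate 2 was the highest. WT-Topot lay below WT-Veh (-2.16 ± 0.283, edgeR adjusted p = 5.18e-05), and so did Top1 cKO-Topot (-1.57 ± 0.267, edgeR adjusted p = 0.00109, and 0.0115 with genes of low counts left out). In Top1 cKO-Veh all 3 libraries were lower than the lowest WT-Veh library, by -0.79 ± 0.270 (edgeR adjusted p = 0.280), which passed with the replicate block (-0.76 ± 0.147, edgeR adjusted p = 1.01e-05). The shorter paralogues Magi1 and Magi3 did not pass in WT-Topot, at -0.31 (edgeR adjusted p = 0.557) and -0.25 (edgeR adjusted p = 0.785).

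Dmd, the longest of the 10, did not pass in any comparison. It stood at 43.0, 39.0 and 36.9 CPM in WT-Veh, 30.5, 34.3 and 39.4 in WT-Topot, 45.0, 47.6 and 44.6 with deletion alone (Top1 cKO-Veh) and 39.4, 45.8 and 33.2 in Top1 cKO-Topot. WT-Topot and Top1 cKO-Topot overlapped WT-Veh, and the Top1 cKO-Veh libraries lay just above it. The log2 fold change of WT-Topot was -0.19 ± 0.221, with a 95% interval of -0.65 to 0.27 (edgeR adjusted p = 0.916). Top1 cKO-Veh differed from WT-Veh by 0.20 ± 0.213 (edgeR adjusted p = 0.981) and Top1 cKO-Topot by 0.02 ± 0.232 (edgeR adjusted p = 1). Of its paralogues, utrophin (Utrn) changed by -0.28 (edgeR adjusted p = 0.870) and Drp2 by 0.55 (edgeR adjusted p = 0.183) in WT-Topot. Of 15 genes of the dystrophin-associated proteins (sarcoglycans, syntrophins, dystrobrevins and dystroglycan among them), 10 were detected. In WT-Topot 2.04% of all genes and 3.55% of detected genes were lower. Of the 15 genes, 2 were lower and 13 did not pass, with a median of -0.31 against 0 for all genes. The 2 were Sntg1, a neuronal syntrophin of 938 kb (13.2 ± 1.94 CPM in WT-Veh, 1.27 ± 0.886 in WT-Topot, SD, n = 3; -3.27, edgeR adjusted p = 0.000177), and Dtna, a dystrobrevin of 244 kb (220 ± 22.1 and 76.8 ± 10.01 CPM; -1.51, edgeR adjusted p = 2.67e-05). With the replicate block the same 2 were lower and Sgcb, a sarcoglycan, was higher (110 ± 18.4 and 165 ± 16.4 CPM; 0.59, edgeR adjusted p = 0.0977 without and 0.000491 with the block). Tsga8, a short gene inside Dmd on the other strand, had no counts.

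Park2 held 18, 8 and 6 counts in WT-Veh, 0, 4 and 1 in WT-Topot, 13, 18 and 5 with deletion alone (Top1 cKO-Veh) and 5, 4 and 1 in Top1 cKO-Topot. In CPM the topotecan groups (0, 1.14 and 0.428 in WT-Topot; 1.99, 1.33 and 0.437 in Top1 cKO-Topot) lay below all libraries of the vehicle groups (5.27, 3.51 and 3.46 in WT-Veh; 5.08, 4.12 and 2.51 in Top1 cKO-Veh). The difference in WT-Topot (-2.80 ± 0.785, edgeR adjusted p = 0.0376) passed the threshold with the replicate block (edgeR adjusted p = 0.00403), and that in Top1 cKO-Topot against WT-Veh did not pass in either fit (-1.65 ± 0.651, edgeR adjusted p = 0.202, and 0.104 with the block). None of 15 genes of the parkin pathway, such as Pink1, Mfn2 and Vdac1, passed in WT-Topot (median 0.16), although Uchl1, a ubiquitin hydrolase, rose with the block (0.63, edgeR adjusted p = 8.33e-06).

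Immp2l was seen in 2 WT-Veh libraries, with 9, 0 and 4 counts, and held at most 1 count in every other library. The counts in WT-Topot were 6.49% of those in WT-Veh, with an exact 95% interval of 0.153 to 43.2%. The ratios of Top1 cKO-Veh (12.8%, 1.41 to 56.6%) and Top1 cKO-Topot (14.6%, 1.60 to 64.7%) were as loosely fixed, and no comparison passed (edgeR adjusted p = 0.181 for WT-Topot). With WT-Veh replicate 2 at 0, the groups overlapped. Immp1l, the partner subunit of the peptidase, stood at 2.03 ± 1.26 CPM in WT-Veh and 1.75 ± 1.21 in WT-Topot (SD, n = 3).

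Wwox was low in WT-Topot alone. It stood at 14.3, 13.6 and 12.1 CPM in WT-Veh, 3.35, 1.43 and 3.00 in WT-Topot, 12.9, 10.99 and 13.03 with deletion alone (Top1 cKO-Veh) and 12.3, 9.96 and 9.18 in Top1 cKO-Topot. All 3 WT-Topot libraries lay below the other 9, which spanned 9.18 to 14.3 CPM. The log2 fold change of WT-Topot from WT-Veh was -2.37 ± 0.425 (edgeR adjusted p = 0.00123). Top1 cKO-Veh differed from WT-Veh by -0.13 ± 0.305 (edgeR adjusted p = 1), and Top1 cKO-Topot by -0.33 ± 0.333 (95% interval -1.02 to 0.36, edgeR adjusted p = 0.843).

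Macrod2 stood at 13.2, 12.3 and 25.3 CPM in WT-Veh, 21.4, 16.3 and 22.3 in WT-Topot, 16.8, 16.0 and 16.0 with deletion alone (Top1 cKO-Veh) and 11.6, 11.3 and 5.68 in Top1 cKO-Topot. WT-Topot lay within the range of WT-Veh, which was set by its replicate 3 (0.27 ± 0.318, 95% interval -0.39 to 0.94, edgeR adjusted p = 0.915). Top1 cKO-Topot was the lowest group and lay below all 9 other libraries (-0.77 ± 0.380 against WT-Veh, edgeR adjusted p = 0.392). Against WT-Topot its difference was -1.06 ± 0.324 (edgeR adjusted p = 0.0578), which passed with the replicate block (edgeR adjusted p = 0.00277). None of 7 genes of ADP-ribose turnover, Macrod1 among them, passed in WT-Topot (median -0.11), where 2.04% of all genes were lower and 0.682% higher.

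Dpyd held 14, 2 and 6 counts in WT-Veh, 1, 1 and 2 in WT-Topot, 5, 8 and 3 with deletion alone (Top1 cKO-Veh) and 1, 2 and 0 in Top1 cKO-Topot. Every library of both topotecan groups was at or under the floor. Scaled counts were 15.3% of WT-Veh in WT-Topot (exact 95% interval 3.84 to 45.2%) and 12.98% in Top1 cKO-Topot (2.49 to 43.2%), and neither comparison passed (edgeR adjusted p = 0.114 and 0.116). The 6 other genes of pyrimidine breakdown, of which 2 were detected, gave no call. Fhit had at most 3 counts in any library (WT-Veh 2, 0 and 0, WT-Topot 3, 0 and 0, Top1 cKO-Veh 0, 3 and 0, Top1 cKO-Topot 0, 1 and 1), so no fold change is given. Its short relatives Hint1, Hint2 and Hint3 were measured at 61.1, 10.4 and 7.09 CPM in WT-Veh and did not pass in WT-Topot.

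Deletion of Top1 without drug lowered 1 of the 10 genes, Csmd1, where 0.126% of all genes were lower, and with the replicate block 2, Csmd1 and Magi2, where 2.95% were. The median log2 fold change was -0.40 over the 10 genes and 0 over all genes, and 3 of the 8 detected did not overlap between groups (19.9% of detected genes). Of the 64 detected genes at least as long as Dpyd, 7.81% were lower, and 48.4% with the block. In Top1 cKO-Topot against WT-Veh 2 of the 10 were lower, Csmd1 and Magi2 (1.21% of all genes), and Lrp1b also with the block (4.02%), with a median of -1.61 and 6 of 8 not overlapping (26.5%). Dpyd was again among these 6, with 2 counts in the nearest library of each group, under the floor. These comparisons and that of WT-Topot share the WT-Veh libraries, so their values are given side by side and are not independent.

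**Figure D3:**
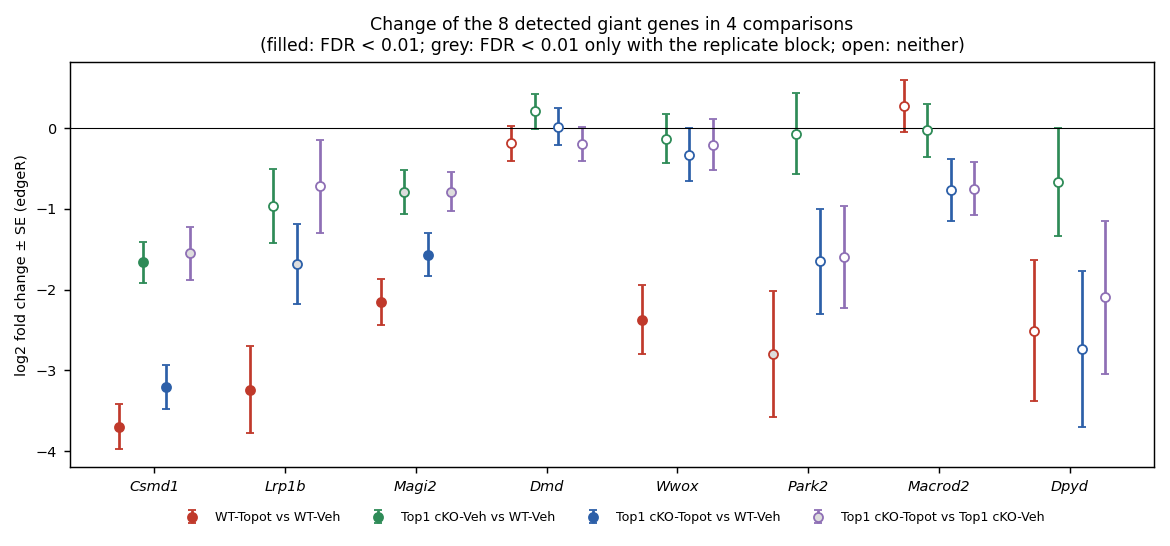
Log2 fold change ± SE (edgeR) of the 8 detected genes (mean of 1 CPM or more) in 4 comparisons, by colour, with filled points at an FDR under 0.01, grey ones where only the fit with the replicate block passes, and open ones where neither does. Csmd1 and Magi2 lie below 0 in all 4 comparisons, Wwox lies at -2.37 in WT-Topot and between -0.33 and -0.13 in the others, and Dmd stays between -0.20 and 0.20.

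Within Top1 cKO cultures none of the 10 genes passed the test of topotecan without the replicate block (0.00837% of all genes were lower). Of the 10, 5 had an unadjusted edgeR p under 0.05, DESeq2 called none, and the median log2 fold change was -0.74. With the replicate block 2 were lower, against 1.74% of all genes: Csmd1 (-1.55 ± 0.332, edgeR adjusted p = 0.111 without and 4.38e-07 with the block) and Magi2 (-0.79 ± 0.240, 0.536 without and 6.08e-05 with it). Csmd1 passed also without Top1 cKO-Veh replicate 3 (edgeR adjusted p = 0.000902). The libraries of the groups did not overlap for 5 of 8 genes, Csmd1, Macrod2, Park2, Magi2 and Dpyd (11.7% of detected genes). For Dpyd the nearest libraries held 3 counts (Top1 cKO-Veh) and 2 (Top1 cKO-Topot), at or under the floor.

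The effect of topotecan was less after deletion for 3 of the 10 genes by the interaction test with the replicate block, against 2.44% of all genes, and for 0 without it, against 0.398% (5 had an unadjusted p under 0.05 in either direction, and DESeq2 called 2). Of the 5, Macrod2 went the other way, at -1.03 ± 0.458 (edgeR adjusted p = 0.537, and 0.103 with the block). For Csmd1 the log2 effect was 2.13 ± 0.419 higher in Top1 cKO (edgeR adjusted p = 0.0108, and 3.83e-05 with the block), for Wwox 2.16 ± 0.489 (0.0262 and 0.000531) and for Magi2 1.36 ± 0.403 (0.132 and 7.82e-05). Lrp1b had 2.50 ± 0.800 (edgeR adjusted p = 0.171 and 0.0263), and Dmd -0.01 ± 0.283 (1 in both). In Top1 cKO-Veh, from which the second effect starts, Csmd1 and, with the block, Magi2 already stood below WT-Veh, and Wwox did not pass. Csmd2 had 2.64 ± 0.441 (edgeR adjusted p = 0.00350).

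Set directly against Top1 cKO-Veh, WT-Topot was lower in 3 of the 10 genes, where 1.23% of all genes were lower: Csmd1 (-2.04 ± 0.342, edgeR adjusted p = 0.00186), Wwox (-2.25 ± 0.418, edgeR adjusted p = 0.00407) and Magi2 (-1.38 ± 0.260, edgeR adjusted p = 0.00484). With the replicate block Lrp1b (-2.25, edgeR adjusted p = 0.00714) and Park2 (-2.75, edgeR adjusted p = 0.00647) joined them, against 4.80% of all genes. Libraries did not overlap for 7 of the 8 detected members (24.5% of detected genes). Dpyd was among the 7, with 3 counts in Top1 cKO-Veh replicate 3 and 2 in WT-Topot replicate 3, at or under the floor. Of Csmd1, Wwox and Magi2, none passed without Top1 cKO-Veh replicate 2 (edgeR adjusted p of 0.0165, 0.0126 and 0.0372), and without WT-Topot replicate 3 only Csmd1 did. Wwox did not pass without WT-Topot replicate 2 (edgeR adjusted p = 0.0159), nor Magi2 without WT-Topot replicate 1 (0.0198) or with genes of low counts left out (0.0154). Among the topotecan groups, Wwox was higher in Top1 cKO-Topot than in WT-Topot (2.02 ± 0.444, edgeR adjusted p = 0.00583), 1 of 10 where 1.46% of all genes were higher. This call was lost without WT-Topot replicate 2 (edgeR adjusted p = 0.0258), without Top1 cKO-Topot replicate 1 (0.0114) or 2 (0.0181), and with genes of low counts left out (0.0112). None of the 10 was lower there (1.03% of all genes), and Macrod2 was with the block (4.08%), which left Wwox as the 1 higher gene (4.60%). Libraries did not overlap for 3 of the 6 detected members (27.5% of detected genes). Lrp1b was among these 3, with 4 counts in Top1 cKO-Topot replicate 2 and 3 in WT-Topot replicate 3, the latter at the floor.

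A pair of short genes lie inside giants and are read from the other strand, with no exon bases in common. Flrt3, an adhesion protein gene of 20.6 kb inside Macrod2, stood at 71.7, 62.7 and 59.3 CPM in WT-Veh, 93.8, 81.6 and 108 in WT-Topot, 53.2, 51.5 and 39.1 with deletion alone (Top1 cKO-Veh) and 52.2, 55.1 and 45.0 in Top1 cKO-Topot. WT-Topot was the highest group and did not overlap any other. Flrt3 was lower in Top1 cKO-Topot than in WT-Topot (-0.90 ± 0.196, edgeR adjusted p = 0.00605), and its difference of 0.55 ± 0.196 between WT-Topot and WT-Veh passed with the block (edgeR adjusted p = 0.152 without and 0.00856 with it). Lrrn3, a neuronal leucine-rich repeat protein gene of 34.1 kb inside Immp2l, stood at 105, 82.8 and 162 CPM in WT-Veh and 163, 216 and 272 in WT-Topot, higher by 0.91 ± 0.238 (edgeR adjusted p = 0.0303, and 2.04e-08 with the block). It stood at 151, 184 and 242 CPM in Top1 cKO-Veh, 0.73 above WT-Veh (edgeR adjusted p = 0.265, and 6.17e-07 with the block), and at 170, 241 and 210 in Top1 cKO-Topot. Replicate 3 held the highest Lrrn3 level of its group in all groups but Top1 cKO-Topot, where replicate 2 did. Mnd1-ps, a pseudogene inside Fhit, had a mean below 1 CPM in every group.

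**Figure D4:**
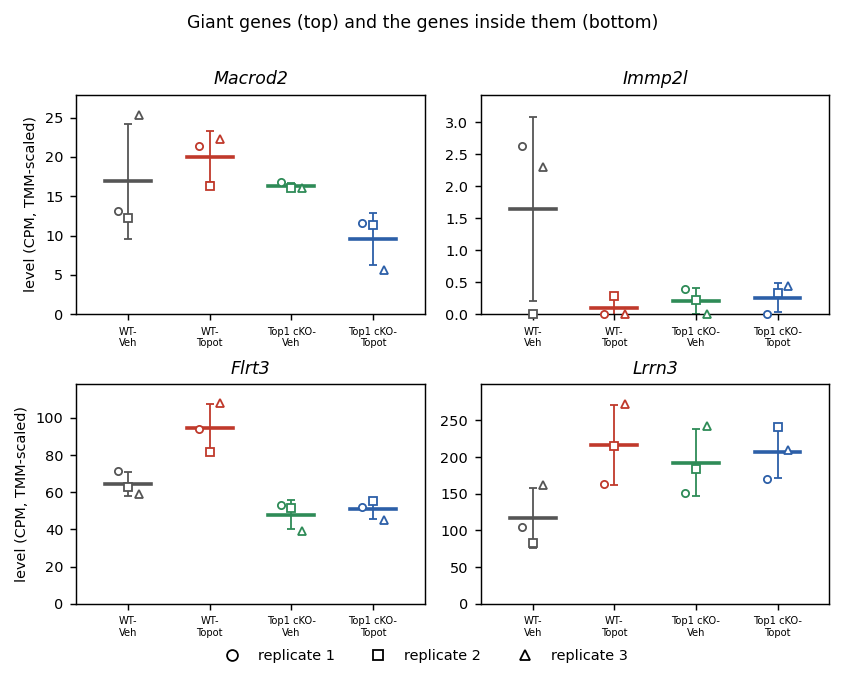
Level (CPM scaled by TMM factors, linear axis from 0) in every library of Macrod2 and Immp2l (top) and of Flrt3 and Lrrn3, which lie inside them (bottom), with the mean and SD of 3 libraries per group. Flrt3 is highest in WT-Topot, and Lrrn3 is lowest in WT-Veh.

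The 10 genes were set beside the other giants. Of 62 detected genes with a span no shorter than that of Dpyd (870.8 kb), 8 are members, and among the other 54, 52 had a negative log2 fold change in WT-Topot against WT-Veh, 40 were lower, 0 were higher, and the median was -2.64. Dmd and Macrod2 were at the top of this class: only Fgfr2, Arfip1, Auts2 and Macrod2 had a log2 fold change above that of Dmd. All 4 have a complete coding transcript shorter than the shortest of Dmd, 154 kb. In the class, 18 genes have a complete coding transcript no longer than that, and of these 15 were negative and 10 lower, with a median of -1.44. In the 43 whose shortest complete coding transcript is longer, 43 were negative and 34 lower, with a median of -2.74. A short transcript did not always go with a small change, since Wwox (34.8 kb) and Cntnap2 (55.2 kb) were lower, and so were Nrxn3 (11.5 kb, -3.55) and Grm7 (4.22 kb, -3.12). The span of the shortest complete coding transcript holds 12.7% of the exon bases in Dmd, 11.1% in Macrod2 and 44.4% in Wwox. Where in the gene the counts lie was not tested. The class and the limit were chosen after the values of Dmd and Macrod2 were seen, and no test is given. Its spans are those of GENCODE (3009 kb for Fgfr2 and 1391 kb for Arfip1). Whether the counted RefSeq exons span as much was not tested.

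**Figure D5:**
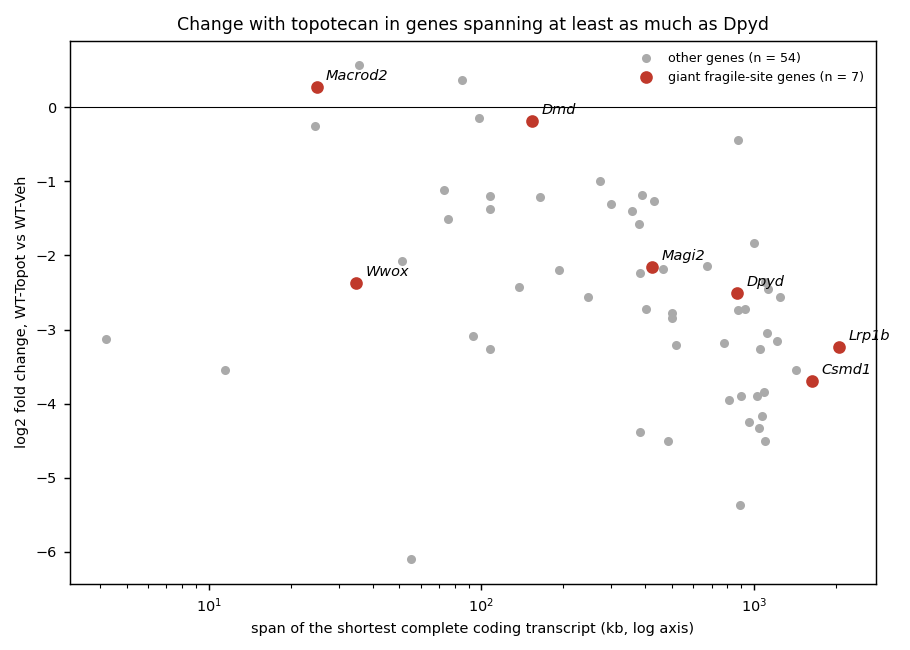
Log2 fold change of WT-Topot against WT-Veh (edgeR) by the span of the shortest complete coding transcript (kb, log axis) for 61 detected genes that span at least 870.8 kb, the giant fragile-site genes in red. Macrod2 and Dmd lie near 0, Wwox lies at -2.37 with a transcript of 34.8 kb, and Lrp1b and Csmd1 lie at -3.24 and -3.69 with the longest ones.

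Of 9 other large genes known from common fragile sites, 6 were lower in WT-Topot than in WT-Veh, and the 4 with the lowest p are named. Lower were 2.04% of all genes and 64.2% of detected genes over 500 kb. The shortest of the 9, Large, spans 539 kb, so the count was near that of genes of such length. Nbea, a protein of membrane traffic (-2.45, edgeR adjusted p = 2.76e-07), Large, a glycosyltransferase that modifies dystroglycan (-2.24, edgeR adjusted p = 8.57e-06), Dlg2, a synaptic scaffold (-1.58, edgeR adjusted p = 1.59e-05), and Cntnap2, an axonal adhesion protein (edgeR adjusted p = 2.67e-05), were lower. Cntnap2 held 83 counts over the 3 WT-Veh libraries and 1 over the 3 of WT-Topot, under the floor, a scaled ratio of 1.02% (exact 95% interval 0.0254 to 5.82%, counting error only). In Top1 cKO-Veh 1 of the 9 was lower, Dlg2 (-1.19, edgeR adjusted p = 0.00694), and with the replicate block 5 were, Dlg2, Nbea, Large, Dab1 and Il1rapl1, by log2 fold changes of -1.73 (Il1rapl1) to -0.71 (Large). In that comparison 0.126% of all genes and 4.40% of detected genes over 500 kb were lower, and 2.95% and 40.1% with the block. All 13 paralogues of the 10 genes were detected. In WT-Topot 2 of them, Csmd2 and Csmd3, were lower (median of the 13, -0.23), against 3.55% of detected genes. In Top1 cKO-Veh none of the 13 passed, and Csmd3 was lower with the block (-1.35, edgeR adjusted p = 0.000473).

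Over the 12 libraries the genes most like each member, by Pearson's r of log2(CPM + 1) among 9507 genes averaging 10 CPM or more, were Opcml (0.988) and Nkain2 (0.988) for Csmd1, Frmpd4 (0.919) and Rims1 (0.915) for Lrp1b, and Epha6 (0.974) and Exoc6b (0.970) for Magi2. They were Zeb1 (0.948) and Lphn3 (0.947) for Park2, Ephb1 (0.956) and Rbfox3 (0.932) for Wwox, Cspg5 (0.921) and E130309F12Rik (0.902) for Dpyd, Ppp1r12a (0.911) and Itch (0.887) for Dmd, and Abhd14a (0.925) and Prss35 (0.903) for Macrod2. Of the 50 genes most alike, 48 were longer than 100 kb for Csmd1, 48 for Park2, 47 for Magi2, 44 for Lrp1b, 36 for Dpyd, 34 for Wwox, 31 for Dmd and 4 for Macrod2, where 16.1% of the 9507 were. These are descriptions over 12 libraries that share groups and replicate numbers.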

How the data were processed

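RNA-seq was measured in 12 cultures. Per the labels the RNA was polyadenylated, and per the paper the authors filtered the paired reads by TagDust, used TopHat on mm9, removed rRNA reads and deposited raw counts over RefSeq exons by gene symbol, without normalization. The counting program, its use of strand and software versions are not given in the sources used here.

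From the counts, TMM factors, CPM and the quasi-likelihood test were computed with edgeR 4.0.16 (R 4.3.3) on the 6 libraries of each pair of groups, without a filter, with Benjamini-Hochberg adjustment over 23893 genes and an FDR of 0.01. The interaction was fitted on 12 libraries. The script was tested on simulated data. Alternatives were DESeq2 1.42.0, edgeR's exact test, RLE factors, total counts, filterByExpr, all 12 libraries in each fit, the replicate block and leaving out each library. The labels number replicates 1 to 3 in each group, without saying what a number stands for. Deviations from group means correlated at 0.261 to 0.485 in the 18 pairs with the same number and at -0.384 to -0.0494 in the 36 with different numbers (13720 genes), so the numbers were taken to pair the cultures, and the block's value is given where it changes the call of a member, or of a listed gene in a comparison described. Spans and transcripts come from GENCODE vM1 (21013 symbols matched directly, 1067 by a synonym, 1813 not), and promoters from RefSeq.

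The members and gene lists were chosen with earlier results of these data known. Named are all members, paralogues and neighbours, and from other lists at most 4 genes past the FDR by lowest p. Uchl1, Sgcb, Dab1 and Il1rapl1 were named outside that rule, for their change with the block, after their values were seen, and Pink1, Mfn2 and Vdac1 as examples of their list.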

Additional observations from a re-analysis of the deposited data

Results flagged for a closer look

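The effect of topotecan differed between Top1 cKO and WT cultures by the interaction test in edgeR for 3 of the giant genes. With the replicate block, the log2 effect in Top1 cKO minus that in WT was 2.15 for Csmd1 (adjusted p = 3.83e-05), 2.17 for Wwox (adjusted p = 0.000531) and 1.35 for Magi2 (adjusted p = 7.82e-05), and none of the 3 passed without the block. Lrrn3, inside Immp2l, differed in the other direction, by -0.76 (edgeR adjusted p = 0.00549 with the block, 0.472 without), and Csmd2 by 2.64 without the block (edgeR adjusted p = 0.00350). Groups of 3 were not tested for single outlying libraries.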

How the results depend on the processing

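In WT-Topot against WT-Veh 4 of the 10 genes were called without any 1 library. The count of calls moved in other comparisons. With low-count genes left out by filterByExpr it went from 1 to 0 in Top1 cKO-Veh against WT-Veh, from 2 to 1 in Top1 cKO-Topot against WT-Veh and from 1 to 0 in Top1 cKO-Topot against WT-Topot, and fewer genes were tested there. With the replicate block it was 2, 2 in Top1 cKO-Topot against Top1 cKO-Veh, 5 in WT-Topot against Top1 cKO-Veh, 2 in Top1 cKO-Topot against WT-Topot and 3 for the interaction, where DESeq2 called 2 and RLE factors 1. Leaving out 1 library gave 0 to 1 calls in Top1 cKO-Veh against WT-Veh, 0 to 1 in Top1 cKO-Topot against Top1 cKO-Veh, 0 to 4 in WT-Topot against Top1 cKO-Veh and 0 to 1 in Top1 cKO-Topot against WT-Topot. The cause was not tested.

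Of 759 values of single members under an alternative, 707 kept direction and side of the threshold, 19 passed newly, 16 no longer passed and 17 turned sign, each of them an uncalled value. Macrod2 in Top1 cKO-Veh (-0.03) turned to 0.040 with the replicate block and ranged from -0.20 to 0.36 in leave-one-out fits. Dmd in Top1 cKO-Topot against WT-Veh (0.02) turned to -0.013 with filterByExpr and -0.00581 with all 12 libraries and ranged from -0.13 to 0.12 in leave-one-out fits. Its interaction (-0.01) turned to 0.025 with DESeq2, 0.017 with RLE factors and 0.00824 with filterByExpr and ranged from -0.14 to 0.088. Leave-one-out fits ranged from -0.28 to 0.18 for Park2 in Top1 cKO-Veh and from -0.34 to 0.93 for the interaction of Dpyd. Depth limits Fhit, Immp2l, Dpyd, Park2 and Lrp1b, where no WT-Topot library held more than 4 counts.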
